A study of Mus musculus with 21 samples.

Results

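The enzymes that turn arachidonic acid into leukotrienes and prostaglandins were followed here through mouse eosinophils. They are 10 genes picked by name: Pla2g4a, Alox5, Alox15, Alox5ap, Lta4h, Ltc4s, Ptgs1, Ptgs2, Ptges and Hpgds. The rule is by name and applies no threshold on a measured value. The 3 deposited tables hold 15945, 22274 and 16645 genes. All 10 enzymes were found in each table by identifier, Ltc4s in the second table by its Ensembl identifier alone because its symbol cell there holds no name.

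Arachidonic acid is held in membrane phospholipids until the cytosolic phospholipase A2 encoded by Pla2g4a cuts it free. One branch then runs through Alox5, the lipoxygenase that makes leukotriene A4 with the help of its activating protein Alox5ap. Lta4h hydrolyses that product to leukotriene B4, a chemoattractant, and Ltc4s joins it to glutathione to give leukotriene C4, the parent of the cysteinyl leukotrienes for which eosinophils are known. Alox15 is a second lipoxygenase, long used as a hallmark of eosinophils. The other branch starts with the cyclooxygenases, Ptgs1 (mostly constitutive) and Ptgs2 (mostly induced), which make prostaglandin H2. Ptges turns prostaglandin H2 into prostaglandin E2, and Hpgds, the haematopoietic synthase, turns it into prostaglandin D2.

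All 21 libraries came from wild-type mice, and poly(A) RNA was sequenced. The first table compares 3 libraries of untreated bone marrow eosinophils with 3 of untreated granulocyte-macrophage progenitors (GMPs), bone marrow cells from which granulocytes and macrophages arise. The second compares 3 libraries of untreated (resting) eosinophils with 3 of eosinophils given cytokines, here called T2 as in their titles, a model of the allergic response. By their treatment labels all 3 T2 libraries received GM-CSF and IL-4, together with IL33 in library 1, IL34 in library 2 and IL35 in library 3. The numbers in these labels run on by 1 from library to library, so whether the third cytokine truly differed or the label was filled in as a series cannot be told here. The 3 were kept as 1 group by title, and if the cytokines differed they are not replicates of 1 treatment. The third table holds bone marrow-derived eosinophils (BMDEs), which are grown from marrow in culture: 2 untreated control libraries (1 and 2), 3 with 5 µM DFO (deferoxamine, an iron chelator; 9, 11 and 12) and 4 with 10 µM FAC (ferric ammonium citrate, an iron source; 5 to 8). BMDE cultures received SCF and FLT3L at 100 ng/mL for 4 days, then IL-5 at 10 ng/mL, with DFO or FAC from day 4 and RNA on day 7. The labels carry that culture text for every library, so how the bone marrow eosinophils, GMPs and the eosinophils of the second table were isolated is not given in the sources used here. No age is given, and nothing says that libraries of a group came from separate animals or cultures. If they did not, p-values measure only technical spread.

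Total counts ran from 25857382 to 28992668 per library in the first table, from 16073573 to 18995878 in the second and from 16809789 to 17991878 in the third. Eosinophil markers (9 genes, Prg2, Epx, Il5ra, Ccr3 and Siglecf among them) were detected in every eosinophil group and also in GMPs. Markers of other cells were present too, and their levels are given in CPM, which are counts scaled to library size. In bone marrow eosinophil libraries 1 to 3 the eosinophil markers summed to 19536, 19030 and 35678 CPM, against 90.7 to 251.7 in GMPs. The 12 neutrophil markers summed to 33284, 72266 and 198213 CPM in these libraries, against 77.6 to 109.8 in GMPs. The 8 progenitor markers summed to 36596 to 62260 CPM against 52372 to 62323. Both sums were above that of the eosinophil markers in each bone marrow eosinophil library. In the second table the eosinophil markers summed to 5558 to 6055 CPM. The neutrophil and progenitor lists reached at most 2708 and 31.4 CPM there, and the mast cell and basophil list (9 genes, with Tpsb2 at 0) at most 48.8. A pair of libraries stood apart from their groups: bone marrow eosinophil library 3, whose scaling factor was 0.689 where its companions had 1.01 and 0.914, and FAC library 6, with 0.921 where its companions had 0.961 to 0.979. Where leaving out either ended or made a call of a member, or moved its fold change by over 1.5 times, the value without it is given. The scaling was done within each table, so levels are compared within a table only. Genes with an adjusted p below 0.05 in edgeR's quasi-likelihood test, run over all tested genes of the table, are named as called.

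On GRCm38 the members are spread over 6 chromosomes. Ptgs2 (Entrez 19225) spans chromosome 1 from 150100031 to 150108227 on the plus strand, and Pla2g4a (18783) spans chromosome 1 from 149829618 to 149961290 on the minus strand. These neighbours point away from each other, with starts 138741 bases apart. Alox15 (11687) lies on chromosome 11 from 70344152 to 70352031 and Ltc4s (17001) on the same chromosome from 50236461 to 50238616. Alox5 (11689) and Hpgds (54486) share chromosome 6, from 116410077 to 116461178 and from 65117293 to 65144908. Ptgs1 (19224) and Ptges (64292) share chromosome 2, from 36230426 to 36252272 and from 30889471 to 30929863. Alox5ap (11690) lies on chromosome 5 from 149264767 to 149288153 and Lta4h (16993) on chromosome 10 from 93453411 to 93484875. Exons of Alox5ap, Ltc4s and Ptgs1 overlap a gene on the opposite strand (Gm19719, Gm26542 and Gm43621). Use of strand in the counting is not given in the sources used here, so reads of those partners cannot be told apart. Alox15 has close relatives, such as Alox12e, with which reads may be shared.

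Levels of different genes were compared by length with the authors' FPKM, fragment counts scaled to transcript length and library size. Alox5ap led in resting eosinophils, with 1131 ± 19 FPKM (SD, n = 3), followed by Alox15 with 817.8 ± 15.7, Alox5 with 279.5 ± 3.96 and Lta4h with 207.3 ± 2.27. None of these 4 overlapped its neighbour in the order across libraries. Pla2g4a and Ptgs1 came next with 47.2 ± 1.77 and 30.1 ± 1.31 FPKM. Ltc4s stood at 0.887 ± 0.312 FPKM, and Ptges, Hpgds and Ptgs2 were at 0.101 to 0.179 FPKM, with libraries that overlapped between neighbours. Control BMDEs had the same gene first, Alox5ap at 624.5 ± 9.69 FPKM (n = 2), then Alox15 at 287.1 ± 2.16, Lta4h at 263.4 ± 1.19 and Alox5 at 230.4 ± 10.8. Hpgds stood at 13.3 ± 0.587 FPKM in that table, which was normalized on its own. In GMPs Lta4h led with 635.1 ± 2.24 FPKM and Alox5ap followed with 219.6 ± 30.9, while Alox5 had 4.88 ± 2.35 and Alox15 0.31 ± 0.159. Bone marrow eosinophils kept Lta4h (974.9 ± 290.3 FPKM) and Alox5ap (761.3 ± 244) at the top, with libraries that overlapped, and Alox15 (384.3 ± 57.8) and Alox5 (132.4 ± 18.3) below them. Ltc4s was low in every group, with at most 52 counts in any of the 21 libraries.

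**Figure D1:**
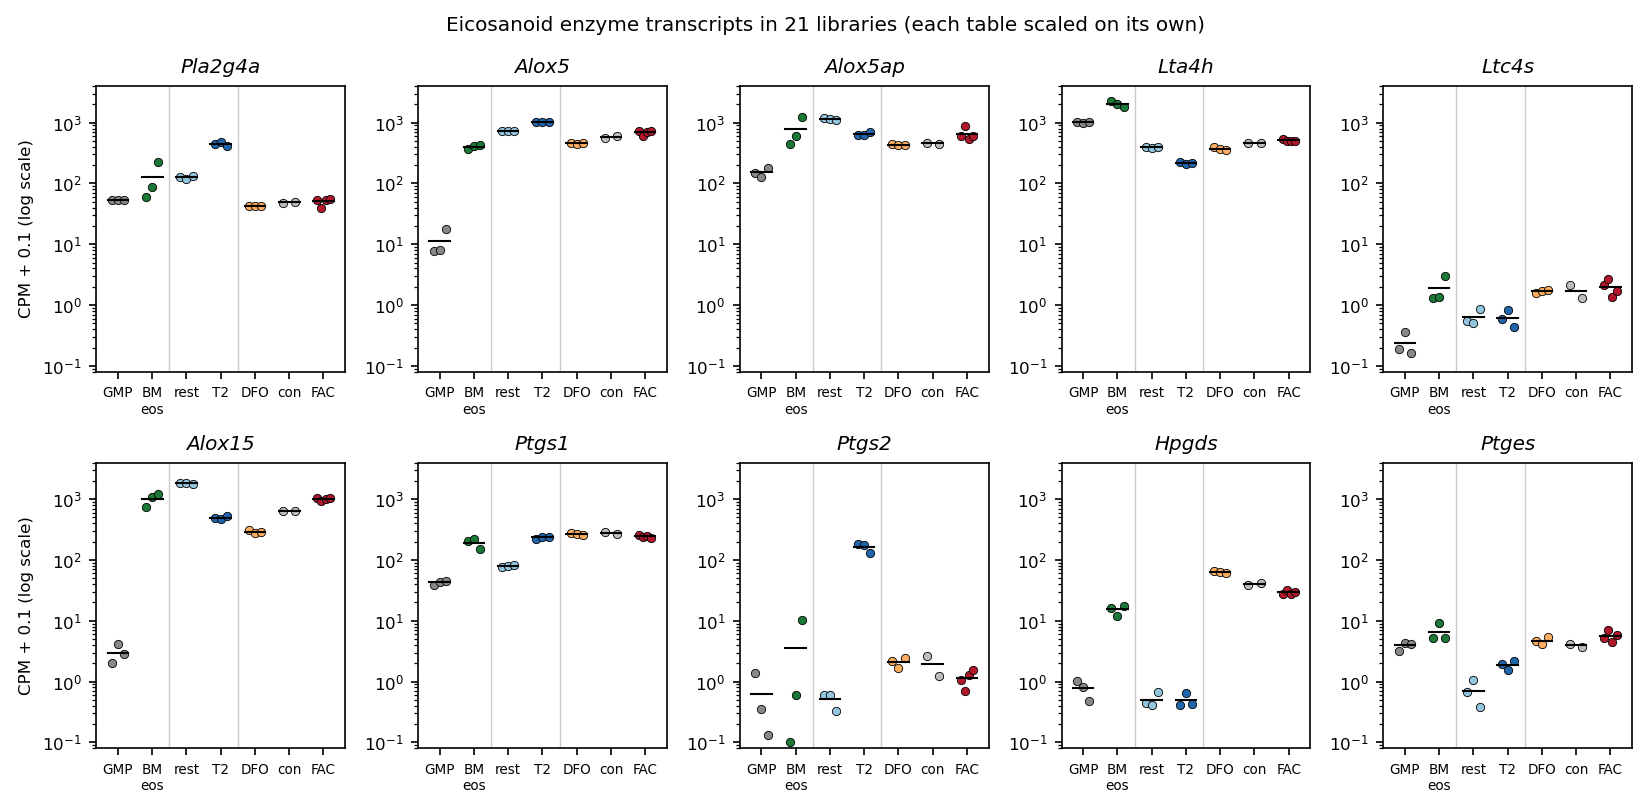
Level of each of the 10 enzyme genes in every library (TMM-scaled CPM plus 0.1, log axis), by group; points are libraries and levels are comparable within a table only. Alox15 and Alox5 sit low in the GMP libraries and high in all eosinophil groups, and Ptgs2 is high in the 3 T2 libraries and low in the 3 resting ones.

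The first comparison sets bone marrow eosinophils against GMPs, to see which of these enzymes differ between the progenitor and the eosinophil population. Both lipoxygenases, the leukotriene genes Alox5ap, Lta4h and Ltc4s, the cyclooxygenase Ptgs1 and the prostaglandin D synthase Hpgds were higher in eosinophils. That is 7 of the 10 members higher and 0 lower, where 19.8% of the 12214 genes tested were called in either direction, 13% higher and 6.78% lower. For 9 members the libraries of one group lay wholly apart from those of the other, which held for 48.3% of all genes tested. The median log2 fold change was 2.54 over the members and 0.01 over all genes tested. In these bulk libraries, fewer cells of a type and less RNA per cell cannot be told apart. All 12 neutrophil markers and 6 of 6 tested mast cell and basophil markers were also higher, with Cma1 at 0 in the eosinophils. So were 8 of 8 erythroid markers, which summed to 979.1 to 2050 CPM against 12.2 to 17.0, and 5 of 5 tested B cell markers, at 285.3 to 583.1 CPM against 40.3 to 57.1. Of 10 tested monocyte and macrophage markers 7 were higher and 2 lower, and their sums overlapped (3571 to 5035 CPM against 3953 to 4762). Of the megakaryocyte and platelet and the T and NK cell lists, 2 of 8 and 2 of 4 tested were higher and 0 lower. Of 6 tested dendritic cell markers 2 were higher and 1 lower, and of 8 progenitor markers 1 was higher and 3 lower. The part of these cells in the result was not tested.

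Alox15 was at 742.8, 1096 and 1223 CPM in the eosinophil libraries and at 1.89, 4.07 and 2.75 CPM in GMPs. The lowest eosinophil library was thus far above the highest GMP library. The fitted change was 8.46 on the log2 scale, with an SE of 0.432 and an adjusted p of 0.000131, or 351.3-fold. Without eosinophil library 3 it was 8.30. Alox5 was at 364.8, 418.9 and 429.8 CPM against 7.6, 8.04 and 17.4 CPM, which the fit put at 5.20 on the log2 scale (SE 0.397) with an adjusted p of 0.000463. GMP library 3 had the most Alox5 of the progenitors, and no library overlapped. Eosinophil library 3, whose scaling factor was 0.689, had the fewest Alox5 counts of its group (7657 against 10039 and 10908) and the highest CPM. The part of other cells in the level of Alox5 was not tested.

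Alox5ap, the activating protein of Alox5, was at 451.9, 612.5 and 1258 CPM in eosinophils and at 125.6 to 177.6 CPM in GMPs. Library 3, which holds the most neutrophil markers, was also the highest for Alox5ap. The log2 fold change of 2.35 had an SE of 0.401 and an adjusted p of 0.00941, and was 1.81 without that library. The call ended without GMP library 1 (adjusted p 0.057) or 2 (adjusted p 0.0613). Lta4h, which makes leukotriene B4, was already at 971.4 to 1031 CPM in GMPs and at 1834 to 2302 CPM in eosinophils. Its log2 fold change was 1.03 (SE 0.165, adjusted p 0.00743), the least of the called members, and leaving out any 1 GMP library ended its call (adjusted p 0.0505 to 0.07). Ltc4s had 33, 33 and 52 counts in eosinophils against 3, 8 and 2 in GMPs. The groups did not overlap, and the log2 fold change was 3.67 (SE 0.922, adjusted p 0.0345). At these counts the call was fragile: it ended under 7 of the 12 alternatives tried, transcript length offsets (log2 fold change 2.53, adjusted p 0.0895) and each omission of a GMP library among them.

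Ptgs1, the constitutive cyclooxygenase, was at 201.4, 221.5 and 152.7 CPM in eosinophils and at 39.1 to 45.7 CPM in GMPs. It was higher by 2.16 on the log2 scale, with an SE of 0.193 and an adjusted p of 0.000871. Ptgs2 gave no call. Its counts were 0, 13 and 180 in the eosinophil libraries and 43, 8 and 1 in GMPs, so the groups overlapped. The 0 in eosinophil library 1 allows a level of up to 0.109 CPM (3 counts, counting error only). The fitted difference of 2.72 (SE 2.04, adjusted p 0.374) came from eosinophil library 3 and was -1.09 without it. Hpgds was at 16.3, 12.1 and 17.3 CPM against 0.932, 0.705 and 0.383 CPM, higher by 4.49 on the log2 scale (SE 0.499) with an adjusted p of 0.00186. The eosinophil libraries were close to each other and all above the GMPs. Ptges had 5.16, 9.06 and 5.16 CPM against 3.1 to 4.29 CPM, where the fitted difference was 0.75 with an adjusted p of 0.276. Pla2g4a was at 60.7, 87.9 and 228.1 CPM against 52.5 to 52.9 CPM, and its fitted difference of 1.25 (SE 0.469) had an adjusted p of 0.106. That difference was 0.49 without eosinophil library 3.

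Of 68 further genes of the pathway, 50 were tested and 20 were called, all of them higher in eosinophils. By role, 5 of 8 genes of arachidonic acid handling, 3 of 6 of prostaglandin and leukotriene breakdown, 3 of 7 of leukotriene processing and 3 of 7 other prostanoid synthases were higher. So were 2 of 4 leukotriene and lipoxin receptors, 2 of 7 other phospholipases, 1 of 3 other lipoxygenases, 1 of 6 prostanoid receptors and 0 of 2 transporters, where 13% of all genes tested were called higher. The largest changes included Pla2g7, which degrades platelet-activating factor, at 344.2 CPM against 0.372 CPM, or 9.85 on the log2 scale with an adjusted p of 0.000871. Hpgd, the dehydrogenase that inactivates prostaglandins, rose by 7.96 and Alox12e, another lipoxygenase, by 6.65 on the log2 scale. Mgll, a monoglyceride lipase, rose by 5.54 and Ephx1, an epoxide hydrolase, by 4.69. Fpr2, a receptor for lipoxin A4 and formyl peptides, had 0 counts in all GMP libraries and 108 to 1074 counts in eosinophils. Its mean over the eosinophil libraries, 29.5 CPM, was at least 944.1-fold above a floor of 3 counts over the GMP group. Without eosinophil library 3, which had the most Fpr2, that mean was at least 453-fold above the floor. Among the other receptors Ltb4r1, for leukotriene B4, rose by 3.08 (506.3 against 60.0 CPM) and Ptgir, for prostacyclin, by 3.19. The cysteinyl leukotriene receptor Cysltr1 had 1.4 CPM against 4.07 CPM and was not called (adjusted p 0.427). The same library was the highest for Hpgd and Pla2g7, whose log2 fold changes without it were 6.83 and 9.15, both called. Without eosinophil library 3 the count of pathway genes was 26 higher and 3 lower.

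The second comparison asks how the pathway changes when eosinophils meet cytokines that stand for an allergic response. The release enzyme and both cyclooxygenases rose, Ptgs2 by 382.1-fold from near the limit of detection, while the lipoxygenase that was the more abundant at rest, Alox15, fell. Of the 8 members tested, 5 rose (Ptgs2, Pla2g4a, Ptgs1, Ptges and Alox5) and 3 fell (Alox15, Alox5ap and Lta4h). Most genes were called as well: 76.1% of the 11345 genes tested were called, 38.2% higher and 37.9% lower, so that many calls are the background of this comparison and the sizes of the changes carry the description. All 8 had every T2 library on one side of every resting library, as had 77.7% of all genes. The median log2 fold change was 1.01 over the members and -0.01 over all genes. Upper-quartile scaling moved the latter to -0.13 and turned the direction of no member.

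Ptgs2 had 9, 10 and 4 counts in the resting libraries and 2965, 2925 and 2339 counts in the T2 libraries. In CPM it was at 0.231 to 0.511 at rest and at 181.9, 177.9 and 130.8 with T2 cytokines. Library 3 was the lowest of the treated libraries and still far above every resting one. The log2 fold change was 8.58 (SE 0.201, adjusted p 2.39e-15). Ptgs1 was at 76.6 to 83.2 CPM at rest and at 223.5, 241.8 and 236.2 CPM with T2 cytokines, which is a rise of 1.55 on the log2 scale (SE 0.051) at an adjusted p of 1.54e-13. In FPKM the ratio of Ptgs2 to Ptgs1 went from 0.00179 to 0.00426 across resting libraries to 0.357 to 0.524 across T2 libraries.

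Pla2g4a, which releases arachidonic acid, was at 119.9 to 130.0 CPM at rest and at 452.2, 479.4 and 415.6 CPM with T2 cytokines. The log2 fold change was 1.84 (SE 0.0551, adjusted p 4.59e-14). Ptges, of the prostaglandin E2 step, rose from 0.289 to 0.97 CPM to 1.46 to 2.07 CPM at 24 to 37 counts per treated library. That rise was 1.53 on the log2 scale, with an SE of 0.38 and an adjusted p of 0.00181. For both genes every treated library was above every resting one, and Ptges was the scarcer by far. Hpgds, of the prostaglandin D2 step, had 5 to 10 counts in every library of this table and was below the filter on low counts, so no difference was detectable at this depth.

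Alox15 fell from 1872, 1816 and 1799 CPM to 483.8, 465.3 and 524.2 CPM, for which the fit gave -1.90 on the log2 scale (SE 0.0464) and an adjusted p of 3.85e-15. Each group was tight, and the gap between them was many times the spread within. Alox5 moved the other way, from 720.1 to 737.2 CPM to 1014 to 1035 CPM, a rise of 0.49 on the log2 scale (SE 0.0369) with an adjusted p of 5.37e-09. In FPKM Alox15 thus went from 2.88 to 2.97 times the level of Alox5 in resting libraries to 0.527 to 0.592 times in T2 libraries. Alox5ap fell from 1119 to 1211 CPM to 621.9 to 688.4 CPM and Lta4h from 383.7 to 393.8 CPM to 207.3 to 223.2 CPM, each by 0.85 on the log2 scale (adjusted p 1.2e-10 and 4.07e-11). Ltc4s had 6 to 13 counts in each library of this table and could not be tested. The authors' deposited table gives the same signs, with log2 fold changes of 8.40 for Ptgs2, -2.11 for Alox15 and 0.28 for Alox5.

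Reference promoters of 5 members called in the T2 or iron comparisons are shown, so that the sequence around the start of the strongly raised Ptgs2 can be set beside those of its neighbour Pla2g4a, of Ptgs1 and of the iron-arm members Alox5 and Hpgds. They come from RefSeq on GRCm38.p6, each 250 bases before to 50 bases after the start, and 8 of the 10 members have an entry. Alox15 and Alox5ap are not among them. Capitals mark matches, on either strand, to any of 8 motifs. They are GATA, the TATA box TATAAA, the E-box CACGTG, the CRE core ACGTCA, the C/EBP motif TTGCNNAA, the STAT5 motif TTCNNNGAA, the STAT6 motif with 1 more N in its middle, and the NF-kB motif. Coordinates are chr1:150099781-150100080 (plus) for Ptgs2, chr1:149961241-149961540 (minus) for the outer of 2 Pla2g4a starts, chr2:36230176-36230475 (plus) for Ptgs1, chr6:116461129-116461428 (minus) for Alox5 and chr6:65144681-65144980 (minus) for Hpgds.
Ptgs2: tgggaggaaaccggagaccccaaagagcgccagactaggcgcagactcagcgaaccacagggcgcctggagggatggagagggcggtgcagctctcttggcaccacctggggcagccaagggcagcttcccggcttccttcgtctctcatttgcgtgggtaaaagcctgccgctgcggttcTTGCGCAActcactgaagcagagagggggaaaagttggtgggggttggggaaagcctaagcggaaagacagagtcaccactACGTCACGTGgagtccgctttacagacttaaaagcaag
Pla2g4a: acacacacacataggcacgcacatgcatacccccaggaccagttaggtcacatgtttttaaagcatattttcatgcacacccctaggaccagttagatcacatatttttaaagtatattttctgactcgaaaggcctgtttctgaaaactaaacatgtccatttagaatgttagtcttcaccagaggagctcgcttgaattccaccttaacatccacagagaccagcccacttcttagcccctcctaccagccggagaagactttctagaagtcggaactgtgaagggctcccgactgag
Ptgs1: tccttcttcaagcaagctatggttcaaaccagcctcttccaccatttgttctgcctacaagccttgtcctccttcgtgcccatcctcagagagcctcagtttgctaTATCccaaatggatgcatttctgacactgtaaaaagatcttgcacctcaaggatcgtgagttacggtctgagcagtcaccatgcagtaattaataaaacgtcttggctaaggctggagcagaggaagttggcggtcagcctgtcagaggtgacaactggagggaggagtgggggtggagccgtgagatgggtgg
Alox5: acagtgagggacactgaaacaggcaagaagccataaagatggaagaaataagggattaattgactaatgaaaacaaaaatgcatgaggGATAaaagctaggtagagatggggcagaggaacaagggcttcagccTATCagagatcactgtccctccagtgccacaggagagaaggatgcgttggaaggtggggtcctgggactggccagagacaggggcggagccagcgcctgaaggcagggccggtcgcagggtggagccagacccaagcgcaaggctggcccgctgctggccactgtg
Hpgds: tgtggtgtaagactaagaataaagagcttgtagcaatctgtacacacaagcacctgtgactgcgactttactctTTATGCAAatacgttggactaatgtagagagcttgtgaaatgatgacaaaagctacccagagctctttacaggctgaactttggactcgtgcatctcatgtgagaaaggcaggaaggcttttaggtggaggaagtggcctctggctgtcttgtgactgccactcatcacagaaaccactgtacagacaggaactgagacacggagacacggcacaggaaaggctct

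Ptgs2 has a C/EBP match starting 69 bases before the start, a pattern held by 10.8% of 32851 promoters of the same length. Just past its start ACGTCA and CACGTG overlap by 2 bases, and these letters occur in 7.51% and 7.15% of promoters. Neither the outer Pla2g4a window nor the Ptgs1 window holds any of these, apart from 1 GATA in Ptgs1. The window of the other Pla2g4a start, not shown, has 2 GATA matches and 1 TATA box match. Ptges, also not shown, has 1 match to the STAT6 motif, which 6.95% of promoters hold. GATA stands in 57.9% of promoters, and Alox5 has 2. Hpgds has 1 C/EBP match, on the opposite strand. A match is only a run of letters, and no binding was measured here.

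Around the members, 44 of the 68 pathway genes were tested with T2 cytokines, of which 16 rose and 22 fell. That is 86.4% called, where 76.1% of all genes tested were called, 38.2% higher and 37.9% lower. Abcc1, the transporter that exports leukotriene C4, went from 120.1 to 1000 CPM, a rise of 3.06 on the log2 scale (SE 0.0495) with an adjusted p of 3.78e-17. Akr1c18, an aldo-keto reductase, had 0 counts in all resting libraries and 42 to 56 with T2 cytokines. Its mean over the T2 libraries was at least 54.1-fold above a floor of 3 counts over the resting group. Mgst2, a microsomal transferase that can also make leukotriene C4, fell by 2.83 on the log2 scale (from 2.86 to 0.393 CPM). Alox12e fell by 2.58 and Daglb, a diacylglycerol lipase, by 2.42. Of the prostanoid receptors, those for prostaglandin E2 that raise cyclic AMP, Ptger2 and Ptger4, rose by 2.21 and 1.13 and the prostacyclin receptor Ptgir by 1.64. Ptger1 fell from 23.7 to 13.6 CPM and the prostaglandin D2 receptor Ptgdr2 from 27.1 to 19.0 CPM. Of the leukotriene B4 receptors Ltb4r2 rose by 2.27 (1.88 to 9.07 CPM) and Ltb4r1 fell by 0.51 on the log2 scale (119.7 to 83.9 CPM). Cysltr1 was scarce and fell from 0.98 to 0.46 CPM (-1.08 on the log2 scale, adjusted p 0.0219). Cysltr2 had 0.702 CPM at rest and 1.34 CPM with T2 cytokines, with an adjusted p of 0.0643 and no call. Of the 9 eosinophil markers 2 rose and 6 fell in the same libraries, and of 12 neutrophil markers 2 rose and 7 fell. Of 9 tested monocyte and macrophage markers 3 rose and 3 fell, and their sums went from 735.0 to 757.8 CPM to 974.3 to 1020 CPM. Of 7 tested mast cell and basophil markers 2 rose and 4 fell, with sums from 27.2 to 30.4 CPM to 45.5 to 48.8 CPM. Erythroid sums fell from 91.3 to 101.4 CPM to 63.4 to 71.9 CPM, and megakaryocyte and platelet sums from 117.0 to 135.1 CPM to 67.1 to 74.4 CPM. Their part in these changes was not tested.

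**Figure D2:**
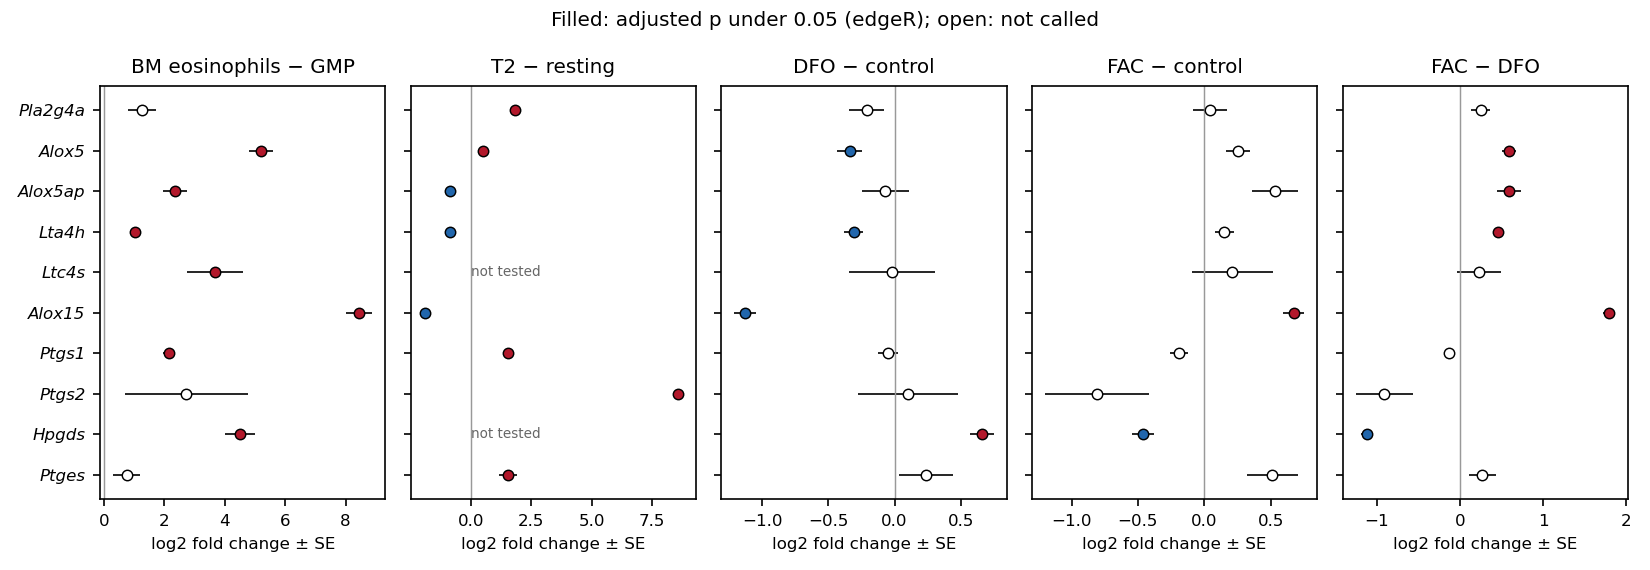
Log2 fold change of each enzyme gene in the 5 comparisons (points, with 1 SE as bars; filled where called). Ptgs2 at 8.58 with T2 cytokines and Alox15 at 8.46 in eosinophils against GMPs are the farthest to the right, and Alox15 lies at -1.90 with T2 cytokines.

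The third set of comparisons asks how a shortage or an excess of iron bears on BMDEs as they differentiate. Alox15 was lowest with the chelator DFO, intermediate in controls and highest with FAC. Hpgds ran in the opposite order. With DFO against control, 4 of the 10 members were called, 1 higher (Hpgds) and 3 lower (Alox15, Lta4h and Alox5), where 11.6% of the 12607 genes tested were called, 6.46% higher and 5.12% lower. The 2 arms lay apart without overlap for 6 members and for 65.7% of all genes. With FAC against control, 2 were called, Alox15 higher and Hpgds lower, where 6.04% of genes were called, 1.76% higher and 4.28% lower. Here 7 members and 36.1% of all genes had no overlap between arms. These comparisons share their 2 control libraries. FAC against DFO, which does not use them for the difference, gave 5 calls, with Alox15, Alox5, Alox5ap and Lta4h higher and Hpgds lower, where 48.2% of all genes were called, 23.5% higher and 24.8% lower, and 7 members and 55.7% of all genes had no overlap.

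Alox15 was at 309.5, 278.8 and 289.3 CPM with DFO, at 643.2 and 634.9 CPM in controls and at 1063, 932, 1015 and 1045 CPM with FAC. The 3 groups did not overlap, and FAC library 6 was the lowest of its group. On the log2 scale DFO against control gave -1.13 with an SE of 0.0819 and an adjusted p of 0.000335, and FAC against control gave 0.67 with an SE of 0.0809 and an adjusted p of 0.00269. The latter call ended without control library 1 (0.68, adjusted p 0.058). FAC against DFO gave 1.79 (SE 0.0734, adjusted p 7.72e-07), or 3.47-fold. In FPKM Alox15 was 0.669 to 0.735 times the level of Alox5 with DFO, 1.2 to 1.3 times in controls and 1.64 to 1.82 times with FAC.

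Hpgds was at 65.8, 63.1 and 61.2 CPM with DFO, at 38.9 and 41.1 CPM in controls and at 27.4, 31.9, 27.5 and 29.7 CPM with FAC. Again no library of any arm overlapped another arm. The log2 fold change was 0.66 (SE 0.0889, adjusted p 0.00275) for DFO against control and -0.46 (SE 0.0831, adjusted p 0.0151) for FAC against control. The FAC call ended without either control library or FAC library 5, in a fit of the 2 arms alone and with transcript length offsets (adjusted p 0.0627 to 0.164). Between FAC and DFO the difference was -1.12 (SE 0.0731, adjusted p 5.41e-06).

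Alox5 was at 448.2 to 464.2 CPM with DFO, at 561.5 and 595.3 CPM in controls and at 734.7, 598.4, 706.4 and 716.4 CPM with FAC. Library 6 again stood low in its group, barely above the controls. DFO against control gave -0.34 (SE 0.0944, adjusted p 0.0467), a call that ended without either control library (adjusted p 0.172 and 0.298). FAC against control gave 0.25 (adjusted p 0.147), or 0.32 without FAC library 6 (adjusted p 0.000278). FAC against DFO gave 0.59 (SE 0.0805, adjusted p 0.000344). Lta4h had 354.4 to 392.8 CPM with DFO, 461.3 and 461.6 CPM in controls and 500.3 to 529.2 CPM with FAC. It was called for DFO against control (-0.31, SE 0.0716, adjusted p 0.0238) and for FAC against DFO (0.46, SE 0.0608, adjusted p 0.000318). The former call ended without either control library (adjusted p 0.16 and 0.163) or without DFO library 11 or 12.

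Alox5ap was at 426.8 to 441.3 CPM with DFO and 447.4 and 461.2 CPM in controls, a difference of -0.07 (adjusted p 0.846). With FAC it was at 604.5, 874.3, 530.3 and 607.9 CPM, the highest value again in library 6. FAC against DFO gave 0.59 (SE 0.149, adjusted p 0.00995), which was 0.44 without library 6 and 0.28 with transcript length offsets, called in both. FAC against control gave 0.53 (adjusted p 0.11), and 0.36 without library 6 (adjusted p 0.000584). Without library 6, FAC against control also called Lta4h (0.16, adjusted p 0.039) and Ptgs1 (-0.17, adjusted p 0.0393), for 6 members in all. All 9 libraries share 1 estimate of the spread, and without library 6 even DFO against control called 4899 genes in place of 1460.

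**Figure D3:**
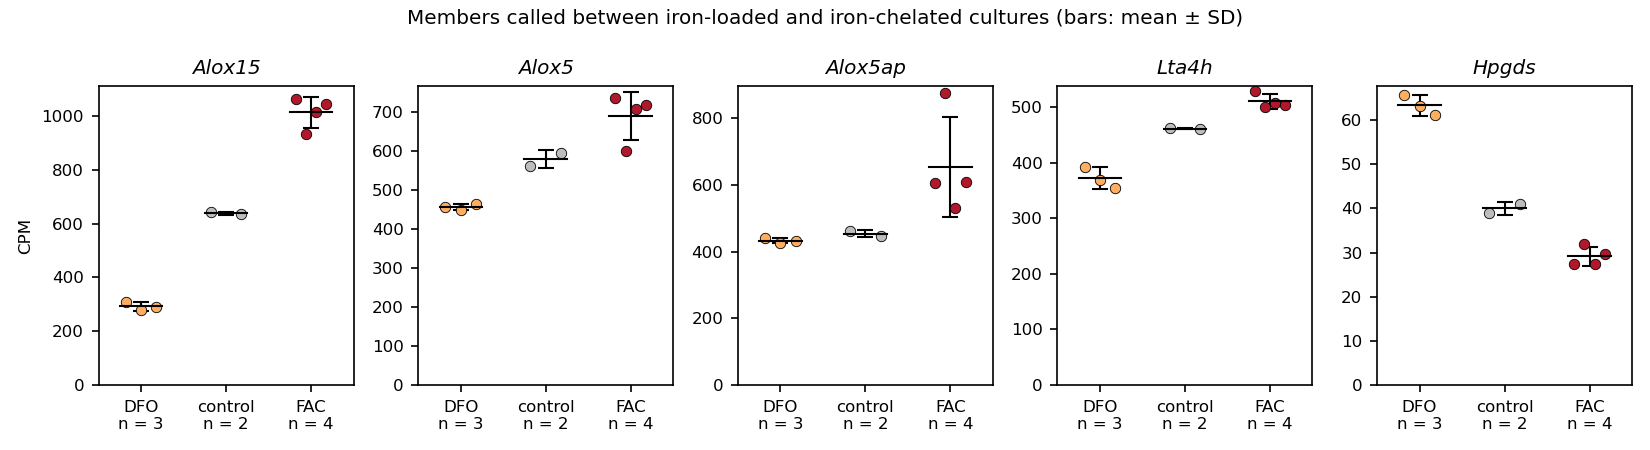
Levels of Alox15, Alox5, Alox5ap, Lta4h and Hpgds (TMM-scaled CPM, linear axes from 0) in each BMDE library with DFO, in controls and with FAC. Alox15 steps up from 278.8 to 309.5 CPM with DFO to 932 to 1063 CPM with FAC, and Hpgds steps down from 61.2 to 65.8 CPM to 27.4 to 31.9 CPM.

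The other members were not called in any of the 3 iron comparisons. Pla2g4a was at 42.0 to 42.7 CPM with DFO, at 47.6 and 50.2 CPM in controls and at 53.8, 39.3, 54.1 and 54.5 CPM with FAC. Its FAC values were tight apart from library 6, and FAC against DFO went from 0.25 (adjusted p 0.09) to 0.37 (adjusted p 1.33e-05) without it. DFO against control was -0.21 for Pla2g4a with and without it, at an adjusted p of 0.37 with it and 0.00763 without it. Ptgs1 was at 233.7 to 286.3 CPM in all 9 libraries, and FAC against DFO gave -0.13 (adjusted p 0.101). Ptgs2 stayed at 10 to 45 counts per library, with 1.57 to 2.33 CPM with DFO, 2.58 and 1.15 in controls and 0.604 to 1.48 with FAC. FAC against DFO was -0.91 (SE 0.344, adjusted p 0.0528), with no overlap between the 2 arms. Ltc4s had 21 to 42 counts in each library, and at this depth no difference between arms was detectable. Ptges had 64 to 113 counts in each library. For Ptges FAC against control gave 0.51 (SE 0.193, adjusted p 0.16), with no overlap between these arms.

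Markers moved with iron in the same libraries. The 9 eosinophil markers summed to 18338 to 21705 CPM with DFO, 41901 to 42842 CPM in controls and 56844 to 69070 CPM with FAC. All 9 were lower with DFO than in controls, 4 were higher with FAC than in controls, and all 9 were higher with FAC than with DFO, none of them at 0. Neutrophil marker sums (12 genes) ran the other way, at 16847 to 18917, 9208 to 11017 and 6501 to 9378 CPM, with controls and FAC overlapping. Of these 12 genes, 8 were higher and 1 lower with DFO than in controls, and 4 were lower with FAC than in controls. FAC against DFO called 11 lower and 1 higher, Ly6g, at 7.74 CPM with DFO and 37.1 CPM with FAC. Dendritic cell marker sums (7 genes) also fell, at 1035 to 1081, 537.6 to 580.9 and 290.0 to 451.8 CPM. The 8 progenitor markers went from 1576 to 1665 CPM with DFO to 746.5 to 839.4 CPM with FAC. Mast cell and basophil markers (9 genes) were at 4888 to 5660 CPM with DFO, 3803 to 4490 CPM in controls and 3941 to 4957 CPM with FAC. The DFO libraries did not overlap the controls but overlapped FAC. Of 8 tested, 1 was higher with DFO than in controls and 2 were higher with FAC than in controls, and FAC against DFO called 4 higher and 3 lower, with Mcpt4 at 0 in controls. Megakaryocyte and platelet markers (8 genes) were at 1994 to 2098 CPM with DFO, 1622 to 1703 CPM in controls and 1470 to 1695 CPM with FAC. DFO against control called 3 of them higher and 0 lower, FAC against control 0 higher and 1 lower, and FAC against DFO 0 higher and 6 lower. Monocyte and macrophage markers (11 genes) summed to 1867 to 2013 CPM with DFO, 2157 to 2302 CPM in controls and 2575 to 3821 CPM with FAC. Of 9 tested, FAC against DFO called 3 higher and 2 lower. T and NK cell sums were at 36.2 to 44.2, 56.8 to 60.6 and 61.7 to 90.5 CPM. Alox15 thus ran in the same order as the summed eosinophil, monocyte and macrophage, and T and NK cell markers. Hpgds ran in the same order as the summed dendritic cell and progenitor markers. It also ran as the neutrophil and the megakaryocyte and platelet sums, apart from the overlap of controls and FAC in both. The part of these cells in the changes of the enzymes was not tested.

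Further along the pathway, 52 of the 68 genes were tested in BMDEs. DFO against control called 6 higher and 4 lower, or 19.2%, where 11.6% of all genes tested were called. FAC against control called 7 higher and 5 lower, or 23.1% against 6.04% of all genes. FAC against DFO called 15 higher and 15 lower, or 57.7% against 48.2% of all genes, so this last count was near the background. Among the called genes Akr1c18 had the largest difference in each: 3.14 ± 0.654 CPM with DFO (n = 3), 10.3 ± 1.24 in controls (n = 2) and 22.4 ± 1.98 with FAC (n = 4), a log2 fold change of 2.84 between FAC and DFO (SE 0.15). Fpr2 ran the other way, with 39.6 ± 5.38, 19.5 ± 6.31 and 11.8 ± 1.15 CPM (FAC against DFO -1.75, adjusted p 3.62e-05). The receptors for cysteinyl leukotrienes fell with FAC: against control Cysltr2 was at -1.02 (adjusted p 0.0118) and Cysltr1 at -0.78 (adjusted p 0.0195). Tbxa2r, the thromboxane receptor, was higher with DFO than in controls (0.76, adjusted p 0.0174) and lower with FAC (-0.70, adjusted p 0.0335). The prostaglandin E2 receptors Ptger2 (0.62) and Ptger4 (0.45) were higher with DFO, and Ltb4r1 was higher with FAC (0.40, adjusted p 0.0324). Pla2g4f, another cytosolic phospholipase, was higher with DFO (0.81) and lower with FAC (-0.60). Cyp4f18, which inactivates leukotriene B4, rose with FAC by 0.65, and Mgll fell by 0.64 with DFO.

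**Figure D4:**
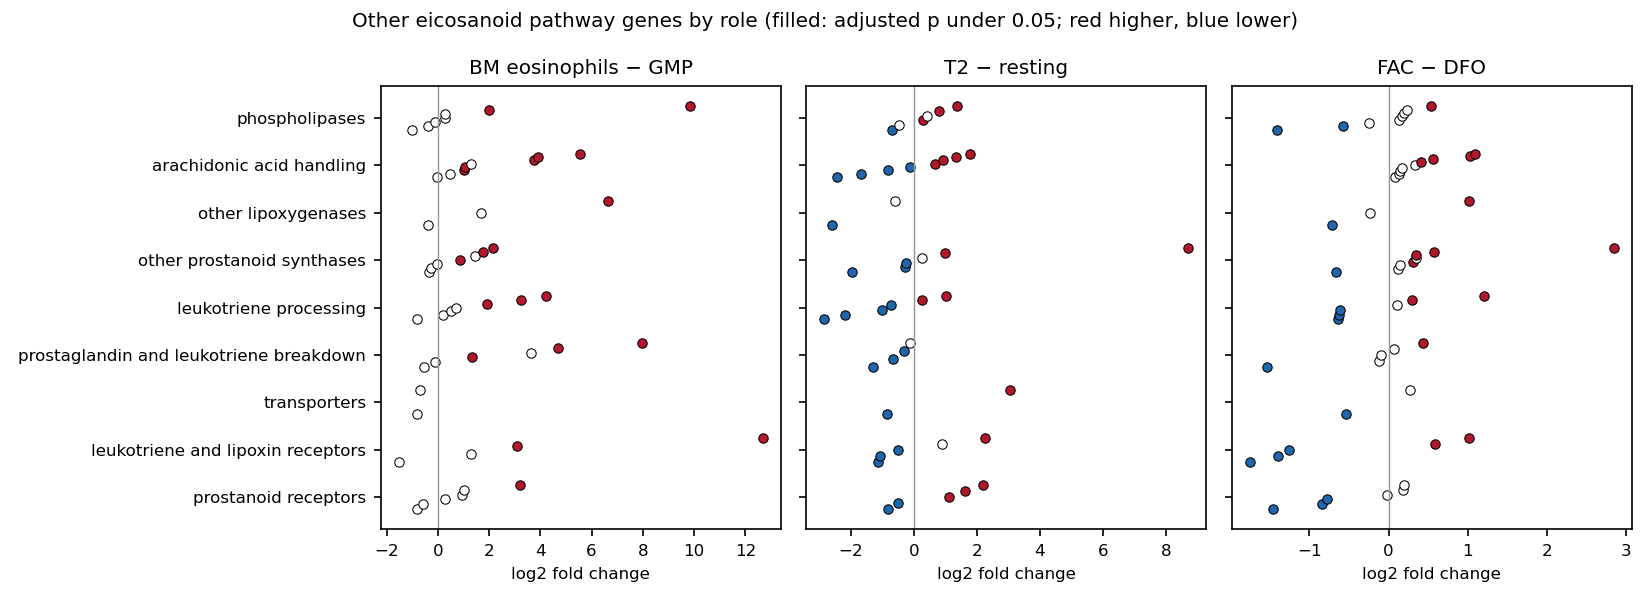
Log2 fold change of the tested pathway genes other than the 10 members, by role (rows), for eosinophils against GMPs, T2 against resting eosinophils and FAC against DFO; each point is a gene, filled where called. The called genes of the first comparison all lie to the right of 0, whereas the other panels spread to both sides. Fitted values for Fpr2 (first panel) and Akr1c18 (second panel) have a group at 0 counts and are not bounds.

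Across all 21 libraries, with each table centred on its own mean, 8 members could be compared with the 10267 genes tested in every table. The genes most like Alox15 were Il5ra (Pearson r 0.994), Rnd1 (0.99) and Hip1r (0.99). Among those most like Alox5 were Adam8 (0.994) and Gata1 (0.987). Alox5ap was closest to Taldo1 (0.985), Lta4h to Gba2 (0.975), Ptgs1 to Ehd1 (0.983), Ptgs2 to Pon3 (0.972), Pla2g4a to Dars (0.975) and Ptges to Dedd (0.878). These are descriptions over libraries that share group differences, depth and scaling.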

How the data were processed

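Poly(A) RNA of 21 libraries was measured in 3 tables, and samples were grouped by title and cell type. Per the labels' protocols the libraries are NEBNext Ultra libraries of RNA captured by oligo(dT). Per the submitters' processing notes the tools were RSEM, StringTie 1.3.1, HISAT2, fastp 0.18.0 and Bowtie2 2.2.8, and the build mm10, given without their roles. The first and the third tables hold expected counts deposited by the authors, estimated reads per gene of which 18.2% and 6.56% of values were not whole; these were rounded. The second holds deposited whole read counts. The authors also deposited FPKM, used here to compare genes, and TPM, not used. For T2 against resting eosinophils the authors deposited a log2 ratio of mean FPKM and p-values with an FDR from a test that is not named.

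Separate fits per table used filterByExpr, TMM factors and the two-sided quasi-likelihood F test of edgeR 4.0.16 (R 4.3.3, with limma 3.58.1), and the 3 BMDE arms were 1 fit. Benjamini-Hochberg adjustment ran over all genes tested. CPM are TMM-scaled. Pairs of libraries within a group differed by more than sampling noise (chi-square per degree of freedom 2.29 to 701). The values were 137 to 701 in bone marrow eosinophils, 2.55 to 6.48 in the second table and 2.29 to 2.75 in control and DFO BMDEs. Each library counted as 1 sample, but such spread does not show that libraries came from separate animals or cultures. Alternatives were DESeq2 1.42.0 (size factors in edgeR, and its Wald test), upper-quartile factors, no filter, leaving out each library, the replicate block, fits of 2 BMDE arms and, added after the data were seen, transcript length offsets. The code was tested on simulated data. Identifiers matched a symbol for 15899, 22219 and 16596 genes of the 3 tables. Named were all members, the called pathway genes with the largest log2 fold changes (up to 6 in a comparison), receptors, and the 3 genes most like each member by Pearson's r of log2(CPM + 1). One gene that this rule names is not reported here. The members and lists were chosen with earlier results of these data known. Counts carry no molecular identifiers, so floors cover counting error only.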

Additional observations from a re-analysis of the deposited data

Results flagged for a closer look

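Pla2g4a in FAC library 6 stood apart from its group. It was at 39.3 CPM, where the other FAC libraries had 53.8, 54.1 and 54.5 CPM, and the gap took 0.954 of the range of the group. Only the FAC group has enough libraries for such a check, which was run on its 10 members, and chance marks about 1 in 20 groups. The same library had the highest Alox5ap and the lowest Alox5 and Alox15 of its group. Its scaling factor was 0.921, and its neutrophil markers summed to 9378 CPM where its companions had 6501 to 7119. Their part in the Pla2g4a value was not tested.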

How the results depend on the processing

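For the fold changes of single members, 605 of the alternative values kept direction and side of the threshold, 30 lost a call, 21 gained one and 10 turned sign. Depth limits Ltc4s, Ptgs2 outside the T2 libraries and Ptges, and Hpgds in the second table. Members called, over the fits that leave out 1 library, ranged from 4 to 8 for eosinophils against GMPs, from 2 to 5 for DFO against control, from 0 to 6 for FAC against control and from 5 to 6 for FAC against DFO, and stayed at 8 with T2 cytokines. Pathway genes ranged from 14 to 29, 3 to 26, 0 to 21 and 21 to 38 in the first 4 and from 37 to 39 with T2 cytokines. FAC against control called 4 members with DESeq2's Wald test and 1 in a fit of the 2 arms, and the counts of pathway genes in fits of 2 arms were 2 for FAC and 31 for DFO against control. FAC against DFO called 8 members with transcript length offsets, 5 higher and 3 lower. Over all genes, eosinophils against GMPs called 2413, or 3867 with DESeq2, 1419 with the replicate block and 747 to 4623 with 1 library left out. DFO against control called 1460, or 5982 in 2 arms, 2379 with length offsets and 217 to 4899 with 1 library left out. FAC against control called 761, or 1311 with DESeq2, 116 in 2 arms, 1249 with length offsets and 76 to 2728 with 1 library left out. The highest values of both came without FAC library 6, and the lowest without a control library. For Ptgs2 the sign turned without eosinophil library 3 against GMPs (-1.09). In DFO against control it turned for Ptgs2 without control library 2 (-0.37) or DFO library 12 (-0.02), for Ltc4s without control library 1 (0.39), DFO library 9 (0.03) or with length offsets (0.09), and for Alox5ap with length offsets (0.03). For Ltc4s it turned in FAC against control without control library 2 (-0.11) and with length offsets (-0.05), and in FAC against DFO with length offsets (-0.14). With 1 library left out, Ptgs2 ranged from -1.09 to 4.56 for eosinophils against GMPs and from -0.37 to 0.80 for DFO against control, and Ltc4s from -0.34 to 0.39 for DFO and from -0.11 to 0.63 for FAC against control. None of the values that turned was called, and the cause was not tested.

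Same-numbered libraries did not deviate together (correlations 0.01, 0.00 and 0.12 in the first table and -0.01, -0.02 and 0.03 in the second), so the numbers were not read as pairs. With the replicate block 6 members and 18 pathway genes were called for eosinophils against GMPs, where Ltc4s lost its call (adjusted p 0.126), and 8 and 37 with T2 cytokines. No paired analysis of the BMDE arms was possible because they share no library numbers.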
